A study of Canis lupus familiaris with 8 samples.

Results

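The 9 genes described here mark the glia of the central nervous system and were followed through the pituitaries of stressed and unexposed dogs of 2 breeds. These were MBP, MOBP, MAG and MOG, which encode myelin proteins, OLIG1 and OLIG2, which encode transcription factors of oligodendrocytes, and GFAP, AQP4 and S100B, which are used as markers of astrocytes. They were chosen by symbol, each symbol matched 1 gene, and they make up 9 of the 24580 genes in the deposited tables. Messenger RNA had been sequenced from the pituitary and the adrenal cortex of adult Chinese Field Dogs and adult Beagles, one arm of each breed after chronic stress exposure and the other labelled non-disposal, which was read here as unexposed. There was 1 library for each breed, tissue and exposure, 8 in all and without replicates, and the labels state neither the kind of stress nor whether a library came from 1 dog or a pool. The labelled tissues carried their own markers: in the pituitaries POMC, the precursor of corticotropin, averaged 22700 FPKM, a level in fragments corrected for gene length and library depth, against 3.0 to 6.29 FPKM in the adrenal cortex, where STAR, a cholesterol carrier of steroid synthesis, stood at 5079 to 7984 FPKM. The 4 pituitary libraries held between 14327357 and 15756311 recovered reads, so that depth differed little between them.

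Myelin is the wrapped membrane that insulates axons. In the central nervous system it is made by oligodendrocytes and in peripheral nerves by Schwann cells. MBP compacts the membrane and is made by both cell types, as is MAG, an adhesion protein on the axon-facing side, while MOG, on the outer surface of the sheath, and MOBP, a basic protein of the compact sheath, belong to oligodendrocytes. OLIG1 and OLIG2 are basic helix-loop-helix factors that specify oligodendrocytes and act in their maturation. GFAP is the intermediate filament of astrocytes, AQP4 the water channel of their end feet on vessels, and S100B a calcium-binding protein of astrocytes, of Schwann cells and of the folliculostellate cells of the anterior pituitary. The pituitary also has glia of its own: the posterior lobe, which stores oxytocin and vasopressin in axon endings from the hypothalamus, is filled with pituicytes, which are related to astrocytes.

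The stressed Chinese Field Dog library stood apart from the other pituitaries. In it the 14 listed genes of forebrain neurons summed to 1960 FPKM, with 0 of 14 at 0 reads, against 142 FPKM in the unexposed Chinese Field Dog pituitary, 145 FPKM in the stressed Beagle pituitary and 145 FPKM in the unexposed Beagle pituitary. NEUROD6, TBR1 and NEUROD2, transcription factors of neurons of the cerebral cortex, had 621, 365 and 165 reads in that library and 0 reads in the other 3 pituitaries. The 7 listed genes of pituicytes and the posterior lobe ran the other way within the breed, summing to 119 FPKM in the stressed and 272 FPKM in the unexposed Chinese Field Dog pituitary, against 293 FPKM in the stressed and 126 FPKM in the unexposed Beagle pituitary. These sums are not specific to the posterior lobe. The same 7 genes summed to 447 to 587 FPKM in the adrenal cortex, and VIM was the most abundant of them in the pituitaries (mean 106 FPKM). The part of the forebrain and posterior-lobe genes in the results on the glial genes was not tested. Results are therefore given breed by breed and, where a fit combines libraries, also without the stressed Chinese Field Dog library. In the unexposed Beagle pituitary the growth hormone gene GH1 was listed at 0, with the status HIDATA in the authors' deposited tables, against 73850 to 81840 FPKM in the other 3 pituitaries. That library enters the Beagle stress pair and the unexposed breed pair, and the part of this missing value was not tested. In bulk RNA, fewer cells of a type and less RNA per cell cannot be told apart.

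Among the myelin genes MBP was the most abundant, and all 4 took the same order over the pituitaries. MBP stood at 271 FPKM (7289 reads) in the stressed and 73.3 FPKM (2031 reads) in the unexposed Chinese Field Dog, against 38.0 FPKM (1101 reads) in the stressed and 21.3 FPKM (565 reads) in the unexposed Beagle. The gene lies on chromosome 1 from 2859534 to 2952664 in CanFam3.1 (ENSCAFG00000000016). Its Chinese Field Dog values were both above its Beagle values, and within each breed the stressed library was the higher one. MOBP (ENSCAFG00000005106, chromosome 23, 9148996 to 9161805) stood at 30.0 FPKM in the stressed and 8.81 FPKM in the unexposed Chinese Field Dog, against 6.07 FPKM in the stressed and 2.93 FPKM in the unexposed Beagle. These levels rest on 41, 13, 8 and 4 reads in that order, since 1 read of MOBP was worth far more FPKM than 1 read of MBP, and the precision of MOBP is correspondingly low.

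MAG and MOG were below 3 FPKM in every pituitary. MAG (ENSCAFG00000007041, chromosome 1, 117287271 to 117301934) stood at 2.76 FPKM (146 reads) in the stressed and 2.28 FPKM (132 reads) in the unexposed Chinese Field Dog, against 0.686 FPKM (40 reads) in the stressed and 0.284 FPKM (16 reads) in the unexposed Beagle. The 2 Chinese Field Dog values of MAG lay close together and well above both Beagle values. MOG (ENSCAFG00000012177, chromosome 35, 26256378 to 26271204) stood at 2.69 FPKM (141 reads) in the stressed and 1.37 FPKM (78 reads) in the unexposed Chinese Field Dog, against 0.399 FPKM (23 reads) in the stressed and 0.0719 FPKM (4 reads) in the unexposed Beagle. MOG thus had the lowest level of the 9 genes in the unexposed Beagle pituitary. Its locus overlaps that of ZFP57, and since the library kit does not mark strand, reads from the shared stretch cannot be assigned to either gene; the loci of the other 8 genes overlapped no annotated gene.

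The 2 transcription factors did not share one order. OLIG1 (ENSCAFG00000031953, chromosome 31, 27718885 to 27721393) stood at 32.2 FPKM (919 reads) in the stressed and 6.94 FPKM (216 reads) in the unexposed Chinese Field Dog, against 6.13 FPKM (192 reads) in the stressed and 1.98 FPKM (60 reads) in the unexposed Beagle. OLIG2, 40802 bases away on the same chromosome (ENSCAFG00000028529, 27674125 to 27678082), stood at 3.91 FPKM (190 reads) in the stressed and 0.509 FPKM (27 reads) in the unexposed Chinese Field Dog, against 1.40 FPKM (75 reads) in the stressed and 0.348 FPKM (18 reads) in the unexposed Beagle. OLIG1 was ordered as the myelin genes were, although its unexposed Chinese Field Dog and stressed Beagle values lay close together. OLIG2 was ordered by exposure instead: both stressed libraries exceeded both unexposed ones.

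The astrocyte markers were also ordered by exposure, and for all 3 the stressed Chinese Field Dog library was far above the rest. GFAP (ENSCAFG00000013973, chromosome 9, 18569003 to 18579645) stood at 163 FPKM (9780 reads) in the stressed and 8.40 FPKM (551 reads) in the unexposed Chinese Field Dog, against 10.8 FPKM (711 reads) in the stressed and 6.09 FPKM (389 reads) in the unexposed Beagle. AQP4 (ENSCAFG00000018125, chromosome 7, 61855550 to 61875546) stood at 22.2 FPKM (783 reads) in the stressed and 0.208 FPKM (8 reads) in the unexposed Chinese Field Dog, against 0.361 FPKM (14 reads) in the stressed and 0.187 FPKM (7 reads) in the unexposed Beagle. Outside the stressed Chinese Field Dog pituitary, AQP4 thus rested on 7 to 14 reads. S100B (ENSCAFG00000012228, chromosome 31, 39784914 to 39786667) stood at 83.8 FPKM (163 reads) in the stressed and 2.37 FPKM (5 reads) in the unexposed Chinese Field Dog, against 5.11 FPKM (10 reads) in the stressed and 0.505 FPKM (1 read) in the unexposed Beagle. For S100B 1 read was worth 0.514 FPKM in the stressed Chinese Field Dog pituitary, against 0.0372 FPKM for MBP, so that the 3 lower S100B levels rest on very few reads.

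**Figure D1:**
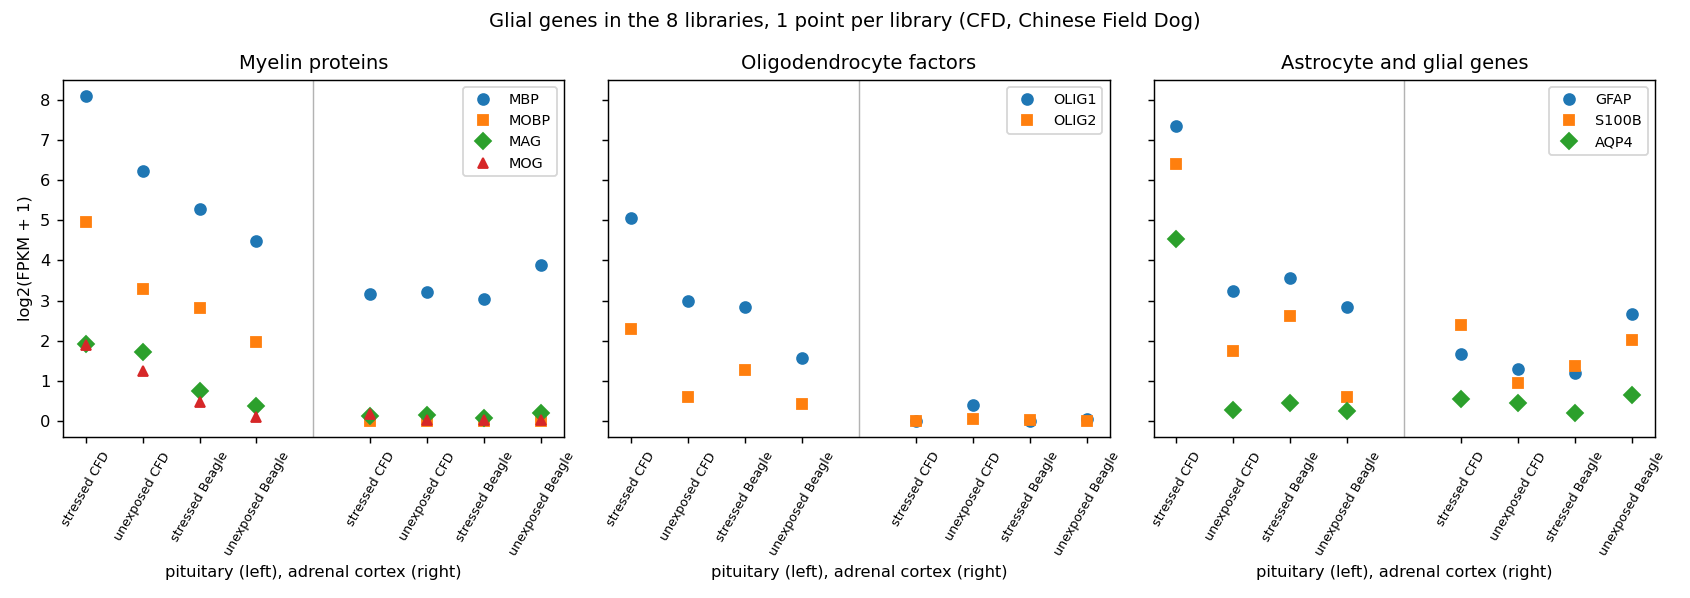
Level of each gene as log2(FPKM + 1), 1 point per library, with the pituitaries on the left and the adrenal cortex on the right of each panel and the libraries named below (CFD, Chinese Field Dog). The myelin genes step down from the stressed Chinese Field Dog to the unexposed Beagle pituitary, whereas GFAP, AQP4 and S100B stand high in the stressed Chinese Field Dog pituitary and lower in the other 3.

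The stress exposure was compared within each breed, 1 library against 1, so that no test of these pairs was possible and the 95% Clopper-Pearson intervals given cover counting error only. They are intervals on the log2 ratio of reads scaled to the authors' size factors, which can lie slightly apart from the ratio of FPKM. In the Chinese Field Dog pituitary the astrocyte markers had the widest differences. AQP4 was 107-fold higher in the stressed library by FPKM (log2 ratio of scaled reads 6.74, interval 5.75 to 7.96), S100B 35.3-fold (5.15, 3.90 to 6.80) and GFAP 19.4-fold (4.28, 4.15 to 4.4). The transcription factors followed, OLIG2 at 7.68-fold (2.94, 2.36 to 3.58) and OLIG1 at 4.64-fold (2.22, 2.0 to 2.44). Myelin genes differed less: MBP was 3.70-fold higher (1.97, 1.90 to 2.04), MOBP 3.40-fold (1.78, 0.86 to 2.81) and MOG 1.97-fold (0.98, 0.57 to 1.40). For MAG, at 1.21-fold, the interval of -0.08 to 0.62 included no difference.

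The Beagle pituitaries showed smaller differences for most of the genes, and the order of the genes was another one. S100B had the widest ratio, 10.1-fold higher in the stressed library, but on 10 against 1 read (log2 ratio of scaled reads 3.27, interval 0.46 to 8.71). MOG was 5.55-fold higher (2.47, 0.92 to 4.46), OLIG2 4.02-fold (2.01, 1.25 to 2.84), OLIG1 3.09-fold (1.63, 1.20 to 2.07) and MAG 2.41-fold (1.27, 0.40 to 2.20). The abundant genes differed least, with MBP 1.78-fold higher (0.91, 0.76 to 1.06) and GFAP 1.76-fold (0.82, 0.64 to 1.0). For MOBP, at 2.07-fold, and AQP4, at 1.93-fold, the intervals of -0.95 to 3.13 and -0.46 to 2.50 included no difference. The stressed library was the higher one for 9 of 9 genes in each breed. Outside the stressed Chinese Field Dog library, then, OLIG1, OLIG2, MBP, MOG, MAG, GFAP and S100B still differed between exposures by more than counting error in the Beagle. MOBP, on 8 against 4 reads, and AQP4, on 14 against 7 reads, could not be shown to.

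On the scale of log2(FPKM + 1), which damps low genes, 7 of the 9 genes were at least 2-fold higher in the stressed Chinese Field Dog pituitary, with MOG and MAG below that size. Among the 14720 genes with a mean of at least 1 FPKM in that pair, 7.85% were at least 2-fold higher and 9.54% differed that much in either direction. In the Beagle 2 of the 9 genes, OLIG1 and S100B, were at least 2-fold higher, against 1.26% of 14366 genes higher and 2.35% in either direction. MOG, MAG, OLIG2 and AQP4 were below the mean of 1 FPKM in the Beagle pair, and in the Chinese Field Dog pair AQP4 and OLIG2 were above it through the stressed library, as S100B was in the Beagle pair on 10 against 1 read. The 9 genes had a median of 1.87 in the Chinese Field Dog pair and 0.806 in the Beagle pair, beside medians over all genes of -0.032 and -0.0027. Gene by gene, the stress difference in the Chinese Field Dog exceeded that in the Beagle most for AQP4 (4.26 against 0.20), GFAP (4.12 against 0.73) and S100B (4.65 against 2.02), and for MAG it was the smaller one (0.19 against 0.39). With 1 library per group this difference between the breeds was not tested.

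**Figure D2:**
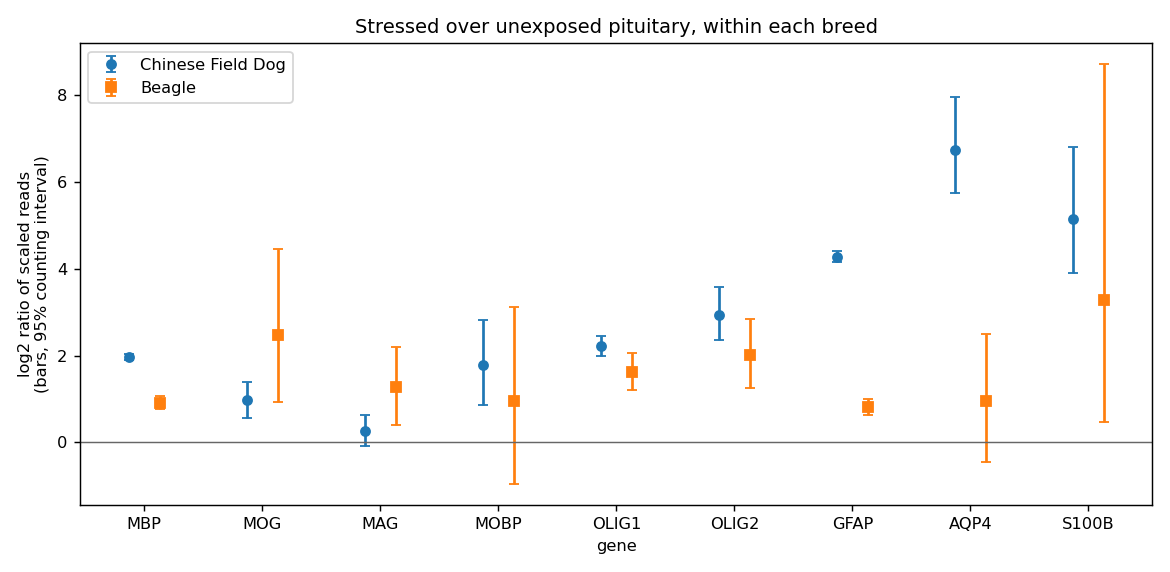
Log2 ratio of scaled reads, stressed over unexposed pituitary, for each gene within the Chinese Field Dog and within the Beagle; bars are 95% counting intervals and the line at 0 marks no difference. AQP4, GFAP and S100B stand highest in the Chinese Field Dog, and MAG is the gene of that breed whose interval crosses 0.

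The breeds were compared within each exposure in the same way. The unexposed pair does not include the library with the forebrain transcripts, and its forebrain neuron genes summed to 142 FPKM in the Chinese Field Dog library and 145 FPKM in the Beagle library. In this pair the myelin genes and OLIG1 were higher in the Chinese Field Dog, while GFAP differed little and no difference was detectable for AQP4 and S100B. MOG was 19.0-fold higher in the Chinese Field Dog (log2 ratio of scaled reads 4.25, interval 2.83 to 6.16, on 78 against 4 reads), MAG 8.03-fold (3.01, 2.25 to 3.86), OLIG1 3.5-fold (1.81, 1.39 to 2.25) and MBP 3.44-fold (1.81, 1.67 to 1.95). MOBP was 3.0-fold higher, with an interval of -0.03 to 3.74 that just included no difference. GFAP, in contrast, was 1.38-fold higher (0.47, 0.28 to 0.66). For AQP4 (1.11-fold, -1.50 to 1.85), OLIG2 (1.46-fold, -0.37 to 1.49) and S100B (4.70-fold, -0.87 to 7.85, on 5 against 1 read) a difference was not detectable at this depth.

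Genes listed for pituicytes and the posterior lobe also stood higher in the Chinese Field Dog of that unexposed pair. The 7 genes, whose sum is not specific to that lobe, summed to 272 FPKM in the Chinese Field Dog and 126 FPKM in the Beagle. None was at 0, 3 of 7 were at least 2-fold higher, and their median log2 ratio was 0.982. Their part in the myelin difference was not tested. Of the microglial genes, C1QA stood at 90.7 FPKM in the unexposed Chinese Field Dog and 33.6 FPKM in the unexposed Beagle, and the 8 genes had a median log2 ratio of 0.364.

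Between the stressed pituitaries the breed difference took in all 9 genes, and it shares the stressed Chinese Field Dog library with the stress comparison of that breed. AQP4 was 61.4-fold higher in the Chinese Field Dog (log2 ratio of scaled reads 5.95, interval 5.19 to 6.83), S100B 16.4-fold (4.17, 3.25 to 5.26) and GFAP 15.1-fold (3.92, 3.81 to 4.04). MBP was 7.14-fold higher (2.87, 2.78 to 2.96), MOG 6.75-fold, OLIG1 5.25-fold, MOBP 4.94-fold, MAG 4.02-fold and OLIG2 2.79-fold, with no interval including 0. MAG and MOG were thus set apart by breed in both exposures, with the fold of the unexposed pair the larger one. On the log2(FPKM + 1) scale 9 of 9 genes were at least 2-fold higher in the stressed Chinese Field Dog, against 8.73% of genes with a mean of at least 1 FPKM higher and 11.1% in either direction in that pair. AQP4, MOG and MAG reached that mean there through the Chinese Field Dog library alone. In the unexposed pair MOG, OLIG2 and AQP4 stayed below it, and 5 of the 6 genes above it were at least 2-fold higher, against 2.01% of genes higher and 3.44% in either direction. MAG and S100B were above it through the Chinese Field Dog library alone, so these counts describe the genes and lend no support to a difference. The medians over the 9 genes were 2.22 in the stressed and 1.16 in the unexposed pair, beside -0.038 and -0.016 over all genes.

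**Figure D3:**
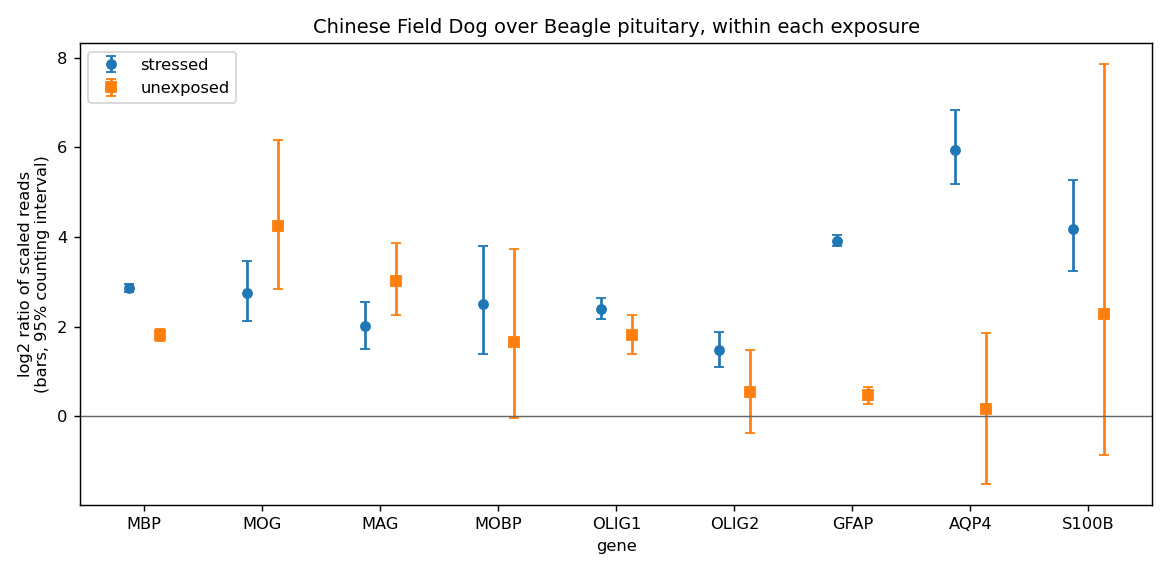
Log2 ratio of scaled reads, Chinese Field Dog over Beagle pituitary, for each gene in the stressed and in the unexposed pair; bars are 95% counting intervals and the line at 0 marks no difference. In the unexposed pair MBP, MOG, MAG and OLIG1 lie clear of 0 and AQP4 and OLIG2 do not, while in the stressed pair all 9 lie clear of it.

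Over the 4 pituitaries, all 9 genes were highest in the stressed Chinese Field Dog and lowest in the unexposed Beagle. The share of all genes with these ends was not counted. With these ends fixed, either breed or exposure was bound to separate the values of each gene. Which label it was depended only on the unexposed Chinese Field Dog against the stressed Beagle, so the division is no separate result. For 5 of 9, MBP, MOG, MAG, MOBP and OLIG1, both Chinese Field Dog values exceeded both Beagle values, as they did for 16.3% of all 14722 genes with a mean of at least 1 FPKM. For the other 4, OLIG2, GFAP, AQP4 and S100B, both stressed values exceeded both unexposed values, as they did for 13.5% of genes. Several of these placements rest on few reads where the unexposed Chinese Field Dog is set against the stressed Beagle, with 8 against 14 reads for AQP4, 5 against 10 for S100B and 13 against 8 for MOBP. MOG and MAG reached the mean of 1 FPKM through the Chinese Field Dog libraries alone. AQP4 reached it through the stressed Chinese Field Dog library and OLIG2 through the stressed libraries. These counts thus describe the genes and lend no support to a difference.

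Relative to MBP within the same library, the astrocyte markers varied widely between the pituitaries, and MOBP and OLIG1 varied little. The ratio of GFAP to MBP in FPKM was 0.600 in the stressed and 0.115 in the unexposed Chinese Field Dog, against 0.283 in the stressed and 0.286 in the unexposed Beagle. That of AQP4 to MBP was 0.0817 in the stressed and 0.00283 in the unexposed Chinese Field Dog, against 0.00951 in the stressed and 0.00877 in the unexposed Beagle. MOBP over MBP varied only between 0.111 and 0.160 over the 4 pituitaries, and OLIG1 over MBP between 0.0931 and 0.162. MAG over MBP was lowest where MBP was highest, at 0.0102 in the stressed and 0.0311 in the unexposed Chinese Field Dog, against 0.0181 in the stressed and 0.0133 in the unexposed Beagle. The Beagle pituitaries thus held GFAP and MBP in nearly the same proportion at both exposures, and the Chinese Field Dog pituitaries did not.

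Other genes of the same cell types were read from lists, by the number at least 2-fold higher or lower and the median log2 ratio of all listed genes. Of 19 other genes of oligodendrocytes and myelin, 4 were at least 2-fold higher and 0 lower in the stressed Chinese Field Dog pituitary (median 0.425), and 2 and 0 in the stressed Beagle pituitary (median 0.203). CNP, an enzyme of the myelin membrane, stood at 44.0 FPKM in the stressed and 30.2 FPKM in the unexposed Chinese Field Dog, against 25.5 FPKM in the stressed and 22.5 FPKM in the unexposed Beagle. PLLP, a membrane protein of myelin, ran from 21.6 to 27.4 FPKM over the 4 pituitaries and was lowest in the stressed Chinese Field Dog, as was ENPP4 at 18.3 FPKM.

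The 9 precursor genes of the oligodendrocyte lineage held 4 that were at least 2-fold higher in the stressed Chinese Field Dog (median 0.745) and 1 in the stressed Beagle (median 0.438), with 0 lower in either. PTPRZ1, a receptor phosphatase of precursors, stood at 21.5 FPKM in the stressed and 9.36 FPKM in the unexposed Chinese Field Dog, against 10.0 FPKM in the stressed and 7.14 FPKM in the unexposed Beagle. Of 15 other astrocyte genes, 8 were at least 2-fold higher and 1 lower in the stressed Chinese Field Dog (median 1.09), against 0 and 0 in the stressed Beagle (median 0.331). ALDOC, an aldolase of astrocytes, stood at 304 FPKM in the stressed and 86.1 FPKM in the unexposed Chinese Field Dog, against 85.8 FPKM in the stressed and 93.7 FPKM in the unexposed Beagle. GLUL, glutamine synthetase, did likewise, at 208 FPKM in the stressed and 89.8 FPKM in the unexposed Chinese Field Dog, against 87.2 FPKM in the stressed and 101 FPKM in the unexposed Beagle. Of the genes chosen after their values were seen, the glutamate transporter SLC1A2 stood at 108 FPKM and the membrane protein MLC1 at 49.5 FPKM in the stressed Chinese Field Dog, against at most 4.03 and 0.856 FPKM in the other 3 pituitaries. In the limma fit of exposure given below, 14 of the 15 astrocyte genes were higher in the stressed pituitaries. ALDH1L1, also chosen after its values were seen, was the 1 that was lower (log2 -0.46), and its fitted breed difference was -0.89. CLU, the most abundant of the 15 at a mean of 528 FPKM in the pituitaries, differed by 0.46 for exposure.

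The lists of other cell types ran with the glial genes in some pairs and against them in others. All 14 forebrain neuron genes were at least 2-fold higher in the stressed Chinese Field Dog (median 4.72), with SLC17A7, a glutamate transporter of cortical synapses, at 203 FPKM in the stressed and 0.518 FPKM in the unexposed library. In the Beagle 1 of 14 was that much higher in the stressed library (median 0.13). The posterior-lobe genes had medians of -0.927 between the Chinese Field Dog pituitaries and 1.05 between the Beagle pituitaries, where 5 of 7 were at least 2-fold higher in the stressed library. OXT, the oxytocin precursor, stood at 12.5 FPKM in the stressed and 55.7 FPKM in the unexposed Chinese Field Dog, against 69.8 FPKM in the stressed and 21.0 FPKM in the unexposed Beagle. In the Beagle pair the posterior-lobe genes were thus higher together with all 9 glial genes, and in the Chinese Field Dog pair they were lower while the glial genes were higher. The 12 Schwann cell genes summed to 67.9 FPKM in the stressed and 54.0 FPKM in the unexposed Chinese Field Dog, against 48.5 FPKM in the stressed and 49.6 FPKM in the unexposed Beagle. Of them 0 were at least 2-fold higher and 1 lower in the stressed Chinese Field Dog (median 0.032). In the stressed Beagle the counts were 0 and 0 (median -0.075). L1CAM was the most abundant of the 12 in the pituitaries, at a mean of 29.2 FPKM.

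**Figure D4:**
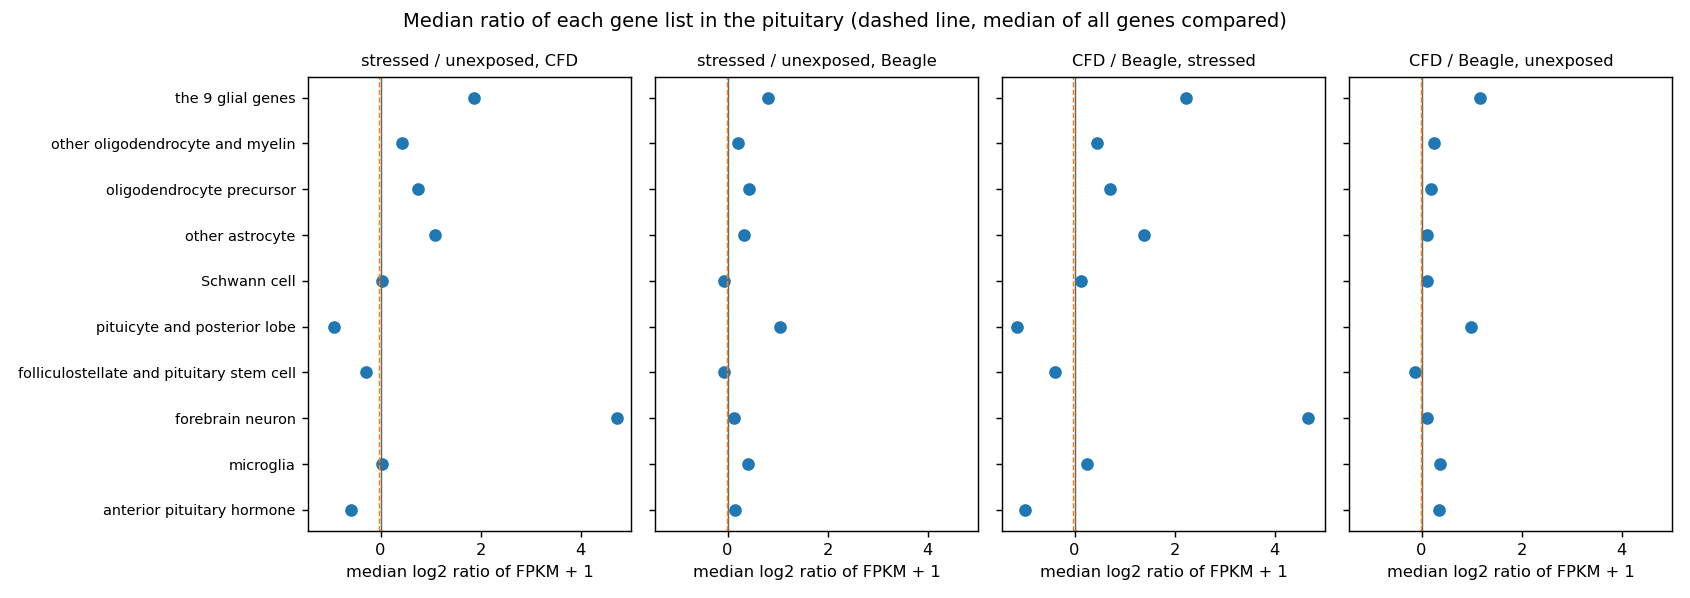
Median log2 ratio of FPKM + 1 over all listed genes for the 9 glial genes and 9 other lists, in the stress comparison of each breed and the breed comparison of each exposure (CFD, Chinese Field Dog); the dashed line is the median of all genes with a mean of at least 1 FPKM. The 9 glial genes lie above 0 in all 4 panels, the forebrain neuron genes reach 4.72 and 4.67 in the panels that hold the stressed Chinese Field Dog library, and the posterior-lobe genes lie on either side of 0.

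The genes whose pattern lay nearest to each of the 9 were sought by the distance between log2(FPKM + 1) profiles over the 4 pituitaries, each centred on its own mean, among 12509 genes. MBP lay nearest to IFGGB1 (distance 0.314). MAG lay nearest to C1QA (0.134) and C1QB (0.148), complement genes of macrophages and microglia, and to LAPTM5 (0.153). C1QA stood at 113 FPKM in the stressed and 90.7 FPKM in the unexposed Chinese Field Dog, against 48.5 FPKM in the stressed and 33.6 FPKM in the unexposed Beagle. The nearest patterns to GFAP were those of SEZ6L (0.135), DNM1 (0.192) and STMN4 (0.217), genes of neurons, and AQP4 lay nearest to PDYN (0.165), ICAM5 (0.174) and SLC12A5 (0.180), which neurons also express. S100B was near to nothing at such distances: its nearest was NPY (0.663), then GLAST (0.695), the astrocyte glutamate transporter. Among the 9 genes themselves MOG and MAG were closest (0.318), then GFAP and AQP4 (0.391) and MOBP and OLIG1 (0.419), and MAG and S100B were farthest apart (3.57). With 4 libraries that differ in breed and exposure, these distances describe the libraries alone.

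A test with replicates was possible only by treating both breeds as replicates when exposures were compared and both exposures as replicates when breeds were compared, with limma on log2(FPKM + 1) over all genes. Since nothing states that libraries are separate animals, p-values measure the spread between these samples. The spread of each gene was estimated over pituitary and adrenal cortex together. For exposure in the pituitary 0 of the 9 genes passed an adjusted p of 0.05, and 6 of 9 had an unadjusted p below 0.05, where 1 of 14722 genes passed (0.00679%) and 4.78% had such an unadjusted p. On the unexposed libraries alone AQP4, OLIG2 and MOG would not have reached the mean of 1 FPKM, so the count lends no support to a difference. The fitted differences were all positive, with OLIG1 at 1.66 ± 0.25 (SE), MOBP at 1.25 ± 0.24, OLIG2 at 1.27 ± 0.25, MBP at 1.34 ± 0.35, S100B at 3.34 ± 0.83, GFAP at 2.43 ± 0.95 and AQP4 at 2.23 ± 1.01, each with a limma adjusted p of 0.861. GFAP and AQP4, whose ratios differed most between the breeds, had the widest errors. Without the stressed Chinese Field Dog library the fitted differences were 1.26 for OLIG1, 0.85 for MOBP, 0.81 for MBP, 2.02 for S100B and 0.73 for GFAP, which are those of the Beagle pair alone. On recovered reads edgeR called 0 of the 9 genes (0% of all genes). An unadjusted edgeR p below 0.05 was held by 6 of the 9, and by 770 of all 14722 genes. DESeq2 called 2 of the 9, MBP (log2 1.45, adjusted p = 0.00582) and OLIG1 (log2 1.93, adjusted p = 0.0178), where 0.421% of genes passed. Over the alternatives tried the adjusted p ran from 0.00582 to 0.984 for MBP and from 0.0178 to 0.984 for OLIG1.

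For breed in the pituitary limma likewise called 0 of the 9 genes, with 6 of 9 below an unadjusted p of 0.05, where 4 of 14722 genes passed (0.0272%) and 8.45% had such an unadjusted p. On the Beagle libraries alone MAG, MOG, AQP4 and OLIG2 would not have reached the mean of 1 FPKM. That count thus lends no support to a difference either. MAG differed by 1.25 ± 0.14 (SE, limma adjusted p = 0.241) and MOG by 1.27 ± 0.15 (adjusted p = 0.247), the smallest errors among the 9. These errors draw in part on the adrenal libraries, where MAG had at most 7 reads and MOG at most 6. With the pituitary libraries alone they were 0.168 for MAG and 0.175 for MOG. With a pseudocount of 0.1 FPKM they were 0.277 and 0.329, above the 0.229 of MOBP. MBP differed by 2.27 ± 0.35, OLIG1 by 1.82 ± 0.25 and MOBP by 1.73 ± 0.24, each with an adjusted p of 0.335. For S100B, GFAP, AQP4 and OLIG2 the adjusted p lay between 0.574 and 0.612. On recovered reads edgeR called 0 of the 9 genes, where 0.0204% of all genes passed. An unadjusted edgeR p below 0.05 was held by 7 of the 9, and by 1312 of all 14722 genes. DESeq2 called MBP (log2 2.35, adjusted p = 5.82e-10) and OLIG1 (log2 2.12, adjusted p = 0.00127), where 1.45% of genes passed; over the alternatives the adjusted p reached 0.843 for both. Without the stressed Chinese Field Dog library the fitted breed differences were 1.74 for MBP, 1.41 for OLIG1 and 1.35 for MAG, and 1.16 for S100B and 0.41 for GFAP. None of the other lists had a gene past the limma threshold for exposure or breed in the pituitary.

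The adrenal cortex served as background, and it held Schwann cell markers and few reads of MOBP, MOG, MAG, OLIG1 and OLIG2. MBP stood at 7.93 FPKM in the stressed and 8.29 FPKM in the unexposed Chinese Field Dog adrenal, against 7.22 FPKM in the stressed and 13.7 FPKM in the unexposed Beagle adrenal. MOBP had 0 reads in all 4 adrenal libraries, OLIG1 at most 10 reads, OLIG2 at most 2, MOG at most 6 and MAG at most 7. A count of 0 allows up to 3 reads in a library. The Schwann cell genes were well represented there, with sums of 89.2 FPKM in the stressed and 110 FPKM in the unexposed Chinese Field Dog, against 114 FPKM in the stressed and 217 FPKM in the unexposed Beagle. MBP and GFAP (5.30 FPKM) thus both had their highest adrenal value in the unexposed Beagle, as did NGFR, a receptor of Schwann cells named after its values were seen (52.9 FPKM). The part of Schwann cells in the adrenal MBP and GFAP values was not tested.

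Between the tissues, 6 of the 9 genes had a mean of at least 1 FPKM over the 8 libraries and were tested. Of these, 4 were called higher in the pituitary, where limma called 29.4% of genes higher and 60.3% in either direction. MOBP and OLIG1, with adrenal means of 0.0 and 0.087 FPKM, entered this test through the pituitary libraries alone, as did AQP4 (0.38 FPKM). The count thus lends no support to a difference. MOBP differed by 3.26 on the log2(FPKM + 1) scale (SE 0.55, limma adjusted p = 0.00114), OLIG1 by 3.0 (SE 0.63, adjusted p = 0.00378) and MBP by 2.69 (SE 0.70, adjusted p = 0.0103), higher in 4 of 4 pituitaries than in any adrenal library. GFAP differed by 2.54 (SE 0.96, adjusted p = 0.0487), and by 1.5 without the stressed Chinese Field Dog pituitary (adjusted p = 0.00906). DESeq2 gave no p for it. The call was lost without the filter (adjusted p = 0.0625), with breed and exposure as blocks (0.0651) and when any of 6 of the 8 libraries was left out, the exceptions being the stressed Chinese Field Dog and the unexposed Beagle pituitary; over these alternatives its adjusted p ran from 0.00906 to 0.105. On recovered reads edgeR called 4 of the 9 genes (60.9% of all genes) and DESeq2 3 (61.6%). S100B (1.17, adjusted p = 0.394) and AQP4 (0.92, adjusted p = 0.413) did not pass, and without the stressed Chinese Field Dog pituitary the S100B difference was -0.02. Over all 9 genes, 6 had every pituitary value above every adrenal value, and the exceptions were MOG, AQP4 and S100B. So did 28.5% of the genes with a mean of at least 1 FPKM over the 8 libraries. Of the 6, MAG and OLIG2 were below that mean. Within the adrenal cortex MBP, GFAP and S100B could be tested, and limma called 0 of the 3 for exposure (0.0218% of genes passed) and 0 for breed (0.0727%), with 0 of the 3 at an unadjusted p below 0.05 in either test (3.48% and 7.33% of genes). For exposure edgeR and DESeq2 called 0 of the 3 too (0% and 0.0872% of genes), as they did for breed (0% and 0.756%).

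In the authors' deposited table of the Chinese Field Dog pituitaries, GFAP and OLIG1 were marked as different between exposures by the authors' rule on p and fold, with false discovery rates of 0.0554 for GFAP and 0.863 for OLIG1. The authors' deposited table of the stressed pituitaries marked GFAP (false discovery rate 0.102), MBP (0.343), OLIG1 (0.801) and AQP4 (0.855) between the breeds. None of these rates was below 0.05. In the authors' deposited tables of the other 6 comparisons none of the 9 genes was marked, the unexposed breed pair included. Many of these entries carried the authors' status of not tested. In every adrenal table these were AQP4, MAG, MOBP, MOG, OLIG1 and OLIG2. They were AQP4 and MOG for exposure in the Beagle pituitary, and AQP4 and OLIG2 for breed in the unexposed pituitary. The share of all genes that the authors marked was not counted here.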

How the data were processed

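Libraries were made with the TruSeq kit, per the labels' protocols, and aligned by the authors with TopHat to CanFam3.1, per the submitters' processing notes; the counting program and annotation are not given in the sources used here. The extraction note names spleen, while the tissue labels name pituitary and adrenal cortex, which were used. Each of 8 deposited tables sets 2 libraries against each other with FPKM per gene, a scaled count (a signal that is reads divided by a size factor), and the authors' log2 fold changes, p-values and false discovery rates. Columns of a library were identical in 16 of 16 comparisons between tables. Dividing the deposited signal by its step gave whole reads, within 0.02, for 98.73% to 99.09% of values; for the stressed Chinese Field Dog pituitary and the stressed Beagle adrenal cortex, whose step was near 1, reads are approximate. Recovered reads ranged from 14327357 to 18712034.

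Pairs of libraries were compared as log2 of FPKM plus 1, among genes with a mean of at least 1 FPKM, and called at 2-fold. Counting intervals are 95% Clopper-Pearson intervals. Tests used limma 3.58.1 in R 4.3.3 in 1 fit of all 8 libraries with level, exposure and breed per tissue (2 residual degrees of freedom), and between tissues 4 libraries against 4 (6 degrees). P-values are Benjamini-Hochberg adjusted over all genes tested. The limma procedure was tested on simulated data. Alternatives were edgeR 4.0.16 and DESeq2 1.42.0 on recovered reads, another pseudocount, no filter, TMM scaling, a trended variance, pituitary libraries alone, and leaving out each library.

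The 9 genes and the lists were chosen with earlier results of these data known. Besides the 9, the text names the 4 most abundant pituitary genes of a list, the forebrain genes and the 3 nearest patterns, and says where a gene was chosen after its values were seen. NEU4, SLC1A3, NKX2-1, HSD3B2 and CYP21A2 were among the listed genes not matched by symbol. GLAST, given above among the nearest patterns, is another name of SLC1A3 and was not counted in the astrocyte list. Some listed genes are not reported here by name.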

Additional observations from a re-analysis of the deposited data

Results flagged for a closer look

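Within the 4 pituitaries, the gap between the highest value and the next, divided by the whole range of log2(FPKM + 1), was 0.954 for AQP4 and 0.839 for GFAP, in both cases for the stressed Chinese Field Dog pituitary, which sets that library apart from the other 3. In the adrenal cortex the same measure was 0.961 for MOG, highest in the stressed Chinese Field Dog with 6 reads, and 0.859 for OLIG1, highest in the unexposed Chinese Field Dog with 10 reads. Chance alone flags about 1 in 20 groups of replicates by this measure, and these 4 libraries of a tissue differ in breed and exposure.

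In the adrenal cortex the stress ratio had opposite signs in the breeds for GFAP and S100B. GFAP stood at 2.16 FPKM in the stressed and 1.45 FPKM in the unexposed Chinese Field Dog, against 1.31 FPKM in the stressed and 5.30 FPKM in the unexposed Beagle, a difference between the breeds of 1.81 in log2(FPKM + 1). S100B stood at 4.21 FPKM in the stressed and 0.912 FPKM in the unexposed Chinese Field Dog, against 1.57 FPKM in the stressed and 3.02 FPKM in the unexposed Beagle, a difference of 2.09 that rests on 7, 2, 3 and 5 reads in that order. With 1 library per group these differences were not tested.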

How the results depend on the processing

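Over all alternatives, 410 tested differences of single glial genes kept their direction and side of the threshold, 12 reversed, 8 lost a call (GFAP between tissues) and 4 gained one (MBP and OLIG1 with DESeq2). Of the ratios within pairs of libraries, 74 moved by at most the half-width of their counting interval and 9 by more. Genes called for exposure in the pituitary numbered 1, against 2 with a pseudocount of 0.1, 0 with edgeR, 62 with DESeq2 and 0 with the pituitary libraries alone. For breed there the count was 4, against 2 without the filter and 214 with DESeq2. In both tests DESeq2 called 2 of the 9 glial genes. In the adrenal cortex 3 genes were called for exposure, against 0 without the filter, 0 with edgeR and 12 with DESeq2, and 10 for breed, against 4, 0 and 104. At least 2-fold differences numbered 338 in the Beagle stress pair, against 548 with a pseudocount of 0.1 and 186 among genes with at least 50 reads, where 1 in place of 2 of the 9 genes remained (OLIG1). In the unexposed breed pair they numbered 498, against 801 and 312.

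Leaving out each library in turn gave 8164 to 9302 genes between tissues (3 to 4 of the 9), 0 to 101 for exposure and 5 to 161 for breed in the pituitary, and 5 to 41 and 14 to 42 in the adrenal cortex, with 0 of the 9 in these last 4 tests. Signs reversed for S100B in the adrenal breed test with edgeR (log2 0.13), and between tissues when a library was left out (-0.019 without the stressed Chinese Field Dog pituitary, up to 1.92). In the adrenal exposure test S100B ran from -0.65, without either Chinese Field Dog library, to 1.45, and GFAP from -1.45 to 0.36, without either Beagle library. In the adrenal breed test MBP ran from -0.66 to 0.12, S100B from -1.07 to 1.02 and GFAP from -1.36 to 0.46, the positive values without either unexposed library. The cause was not tested, but each such fit rests on 1 adrenal pair. Depth limits S100B, MOBP and, outside the stressed Chinese Field Dog pituitary, AQP4, which rest on 1 to 14 reads in most libraries. With breed and exposure as blocks between tissues, 3 of the 9 genes were called in place of 4, with GFAP lost.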

Other observations

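Some listed genes of oligodendrocytes were abundant in the adrenal cortex, where the myelin genes and factors described above were low. ENPP2, the secreted enzyme autotaxin, stood at 2692 FPKM in the stressed and 2304 FPKM in the unexposed Chinese Field Dog adrenal, against 2790 FPKM in the stressed and 2574 FPKM in the unexposed Beagle adrenal, and at 3.38 to 10.9 FPKM in the pituitaries. MAL, a membrane protein of myelin and of epithelia, stood at 173 FPKM in the stressed and 109 FPKM in the unexposed Chinese Field Dog adrenal, against 89.3 FPKM in the stressed and 60.6 FPKM in the unexposed Beagle adrenal, and at 6.92 to 8.67 FPKM in the pituitaries. Both genes were chosen after their values were seen.

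Other factors of the oligodendrocyte lineage differed in their order over the pituitaries. NKX2-2, a factor of oligodendrocyte precursors also chosen after its values were seen, stood at 6.68 FPKM in the stressed and 4.98 FPKM in the unexposed Chinese Field Dog, against 6.0 FPKM in the stressed and 8.22 FPKM in the unexposed Beagle, highest where OLIG1, OLIG2 and MBP were lowest. SOX10, a factor shared by oligodendrocytes and Schwann cells and chosen in the same way, stood at 4.66 FPKM in the stressed and 1.17 FPKM in the unexposed Chinese Field Dog, against 1.51 FPKM in the stressed and 0.496 FPKM in the unexposed Beagle, ordered by exposure as OLIG2 was.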
